A study of Mus musculus with 8 samples.

Results

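Interferon-stimulated antiviral genes were followed in the prelimbic cortex of mice with and without nerve injury. The group was a list of 39 gene symbols chosen by name, covering the type I interferon receptor, its signal transducers, sensors of viral RNA and the proteins that interferons induce. All 39 symbols had a row in the deposited table, out of 14765 genes, and all 39 passed the filter on low counts.

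The study measured bulk poly(A) RNA in PrL tissue (taken here, from the series' topic, as the prelimbic part of the medial prefrontal cortex) of C57 mice. There were 4 SNI libraries and 4 Sham libraries, where SNI is taken as spared nerve injury, in which part of the sciatic nerve is cut to give long-lasting pain, and Sham as its surgical control. The labels give C57 as the genotype of both groups and no transgene or drug in either. Age, sex, time after surgery and whether libraries represent different mice are not given in the sources used here. Each p-value therefore measures library-to-library spread, part of which may be technical.

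Type I interferons bind a receptor made of IFNAR1 and IFNAR2, whose attached kinases JAK1 and TYK2 phosphorylate STAT proteins. STAT2 and IRF9 are parts of a complex that binds the interferon-stimulated response element in promoters and switches on a large set of antiviral genes. In the healthy brain a low, tonic level of interferon signalling keeps many of these genes expressed, and microglia, astrocytes, endothelial cells and neurons can all express them.

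Of the 39 members 7 fell in SNI and 0 rose. They were Ifi27l2a, Lgals3bp, Isg15, Rtp4, Ifi27, Ifit3 and Ifit2, with log2 fold changes (SNI over Sham) of -1.63, -1.28, -1.09, -0.84, -0.63, -0.61 and -0.46. By edgeR's quasi-likelihood test, adjusted over all 13911 genes tested at a false discovery rate of 0.05, 7 of 39 members (17.9%) were lower, beside 2.87% of all genes, and 0 were higher, beside 2.15% (5.02% of all genes in either direction). At an unadjusted p under 0.05 the same test had 18 members lower and 0 higher, beside 10.7% and 10.3% of all genes. DESeq2 and limma voom each called 13 members lower, beside 4.7% and 3.16% of all genes. Each called 0 members higher, beside 511 and 342 of the 13911 genes. In 11 members (28.2%) the 4 SNI values all lay below the 4 Sham values, beside 7.02% of all genes, and in 0 members did they all lie above, beside 5.64%. The median log2 fold change was -0.40 over the members and 0.01 over all genes tested. Of the 39 estimates 34 were negative, beside 6652 of the 13911 genes tested. These shares are descriptions of a list chosen with results known, and in bulk tissue fewer cells of a type and less RNA per cell cannot be told apart.

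**Figure D1:**
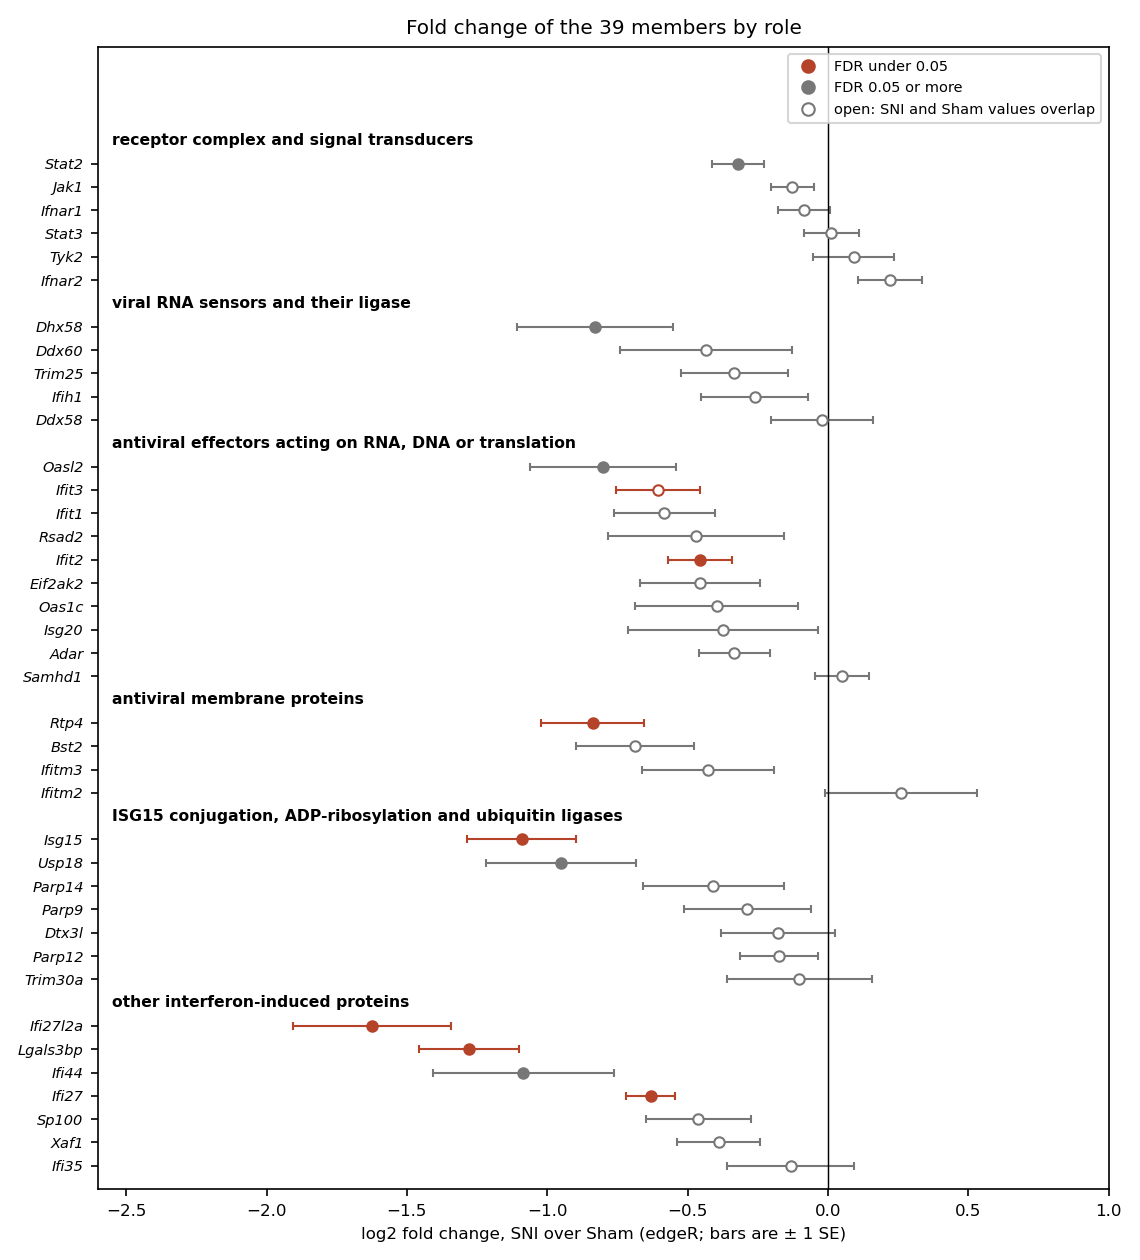
Log2 fold change of each of the 39 members (SNI over Sham, edgeR, horizontal axis) with bars of 1 standard error, grouped by role. Red points passed the 0.05 threshold, and filled points are genes whose 4 SNI values do not overlap the 4 Sham values. The estimates run from -1.63 for Ifi27l2a to 0.26 for Ifitm2, and the receptor and kinase genes lie close to 0.

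The libraries held 14735602 to 19602487 counts. Expression is given as CPM, the read count relative to library size, with library sizes scaled by the trimmed mean of M-values (TMM). Cortical markers were present, with 6 of 6 excitatory neuron markers having a row, but markers of striatal neurons were also present, with 9 of 10 having a row and summing to 373 to 888 CPM in SNI and 252 to 495 CPM in Sham. They were highest in SNI replicates 2 and 4. Without those 2 libraries 4 members fell (Ifi27, Ifi27l2a, Isg15 and Lgals3bp), and 1.88% of all genes were called lower, against 2.87% with all libraries. Whether striatal content played a part in this was not tested.

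The promoters show how the response element is spread over the members. The window examined was 250 bases before to 50 bases after each annotated start in RefSeq (GRCm38.p6). It was available for 32 members, the others being Dhx58, Rtp4, Usp18, Parp9, Parp14, Ifi27 and Ifi27l2a. The core of the response element, GAAA followed by any 2 bases and GAAA again, searched on both strands, was in 14 of these 32 (43.8%). It was in 3.44% of all 32851 promoters of that length and in 3.75% of the 11467 genes with both a promoter and a count row. The STAT-binding palindrome, TTC and GAA with any 3 bases between them, was in 10 of 32 members (31.2%), beside 8.09% of the genes with a row. Eif2ak2, Ifitm3 and Bst2 held both motifs, and in 2 of these 3 the matches overlapped. Of the 14 members with the response element core 2 fell, Isg15 and Ifit3, and the 14 had a median log2 fold change of -0.43. Of the 18 without it 2 fell as well, Lgals3bp and Ifit2, and the median was -0.26. Rtp4, Ifi27 and Ifi27l2a, which also fell, had no window and are in neither set. A match describes letters in this window and is not a shown binding site.

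Stretches of 60 bases that hold a match upstream of the start are printed for 2 members that fell (Isg15 and Ifit3), for Ifit1, a neighbour and relative of Ifit3, for Stat2, itself part of the complex that binds the element, and for Bst2, Rsad2 and Ifitm2, which did not pass the test. Each runs 5′ to 3′ along the gene, and capitals mark matches to the core on either strand (a match on the opposite strand reads TTTC, 2 bases, TTTC).
Isg15, chr4:156200856-156200915, minus strand: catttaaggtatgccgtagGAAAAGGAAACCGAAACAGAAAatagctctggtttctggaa
Ifit3, chr19:34583365-34583424, plus strand: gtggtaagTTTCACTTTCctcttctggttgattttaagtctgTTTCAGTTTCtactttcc
Ifit1, chr19:34640769-34640828, plus strand: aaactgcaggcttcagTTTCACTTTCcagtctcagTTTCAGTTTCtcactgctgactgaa
Stat2, chr10:128270251-128270310, plus strand: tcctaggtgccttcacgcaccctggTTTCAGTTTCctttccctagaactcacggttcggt
Bst2, chr8:71537565-71537624, minus strand: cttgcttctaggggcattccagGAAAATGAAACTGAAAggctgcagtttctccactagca
Rsad2, chr12:26456538-26456597, minus strand: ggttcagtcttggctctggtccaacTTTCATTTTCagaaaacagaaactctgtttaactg
Ifitm2, chr7:140955973-140956032, minus strand: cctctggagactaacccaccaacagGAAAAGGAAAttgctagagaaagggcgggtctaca
The Isg15 stretch holds 3 matches that overlap each other, with the last of them starting 66 bases before the start of transcription. Ifit3 and Ifit1 each hold 2 matches, all on the opposite strand, and Bst2 holds 2 that overlap. Stat2, Rsad2 and Ifitm2 hold 1 each, and that of Stat2 begins 222 bases before its start.

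**Figure D2:**
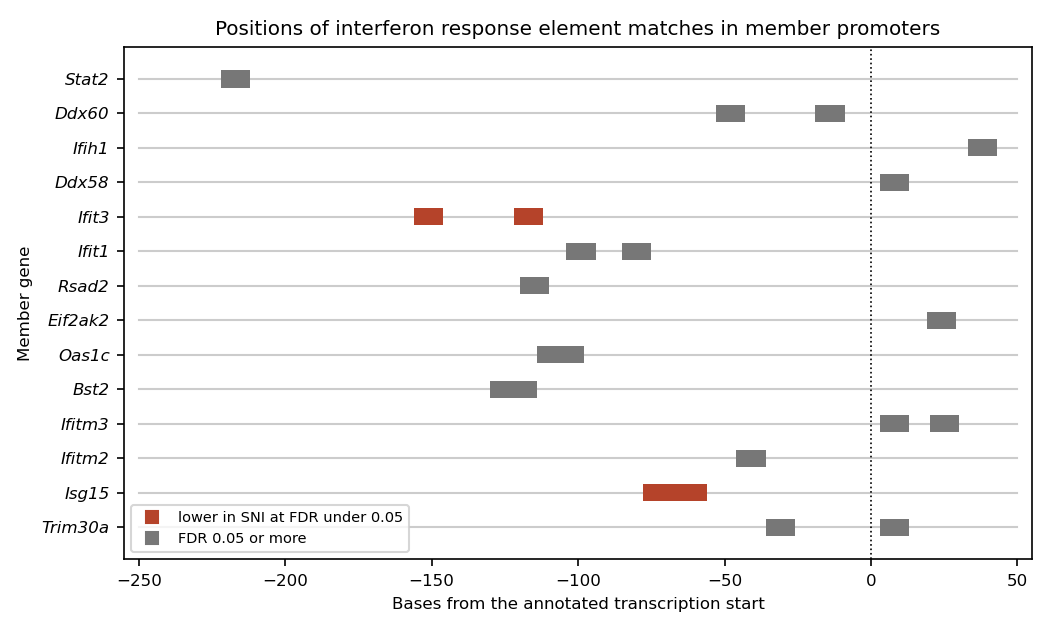
Positions of the response element core in the promoters of the 14 members that hold it, in bases from the annotated start of transcription (horizontal axis, 250 before to 50 after). Boxes are matches, red for members that fell at the 0.05 threshold, and the 2 promoters of Trim30a are drawn on 1 line. The 3 matches of Isg15 lie before the start and run into each other, whereas those of Ifih1, Ddx58, Eif2ak2 and Ifitm3 lie after it.

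None of the 6 receptor and signal transducer genes passed in the edgeR test, 1 (Stat2) had an unadjusted p under 0.05, and DESeq2 called Stat2 while limma voom called 0. Stat2, the transducer specific to interferons of types I and III, had 24.0, 21.9, 25.0 and 24.8 CPM in SNI replicates 1 to 4, against 30.1, 29.1, 32.7 and 27.5 CPM in Sham replicates 1 to 4. The groups did not overlap, although the fold change was small at -0.32 ± 0.0922 (SE) with an edgeR adjusted p of 0.0562. Ifnar1, the receptor chain that carries TYK2, averaged 45.0 ± 3.66 CPM in SNI and 47.7 ± 5.19 CPM in Sham (SD, n = 4 libraries each), and Jak1, the kinase on the other chain, averaged 160.1 ± 7.70 CPM in SNI and 175 ± 10.4 CPM in Sham (SD, n = 4 libraries each). Their log2 fold changes were -0.09 and -0.13. Ifnar2, the high-affinity chain, had 0.22, Tyk2 0.09 and Stat3, which serves cytokine receptors more widely, 0.01, with overlapping groups in each. The edgeR adjusted p of these 5 genes ran from 0.285 to 0.960. Reads of Tyk2, Stat3 and Jak1 may include those of genes annotated on the opposite strand across some of their exons, since use of strand in the counting is not stated.

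Among the sensors of viral RNA no member passed the edgeR test, 1 (Dhx58) had an unadjusted p under 0.05, and limma voom called Dhx58 while DESeq2 called 0. Dhx58, which encodes LGP2, a regulator of the other sensors, had 1.67, 1.88, 2.06 and 0.844 CPM in SNI replicates 1 to 4, against 2.65, 2.66, 3.10 and 3.10 CPM in Sham replicates 1 to 4. Its SNI values all lay below the Sham values, and the lowest, in SNI replicate 4, rested on 14 reads. The log2 fold change was -0.83 ± 0.279 (SE), with an edgeR adjusted p of 0.0992. Ddx58, which encodes RIG-I, averaged 7.22 ± 1.56 CPM in SNI and 7.32 ± 1.13 CPM in Sham (SD, n = 4 libraries each) and Ifih1, which encodes MDA5, averaged 7.94 ± 2.15 CPM in SNI and 9.49 ± 1.60 CPM in Sham (SD, n = 4 libraries each). Both overlapped between groups, with log2 fold changes of -0.02 and -0.26. The sign for Ddx58 turned under library-total and upper-quartile scaling and without Sham replicate 3, without SNI replicate 4 or without SNI replicates 2 and 4 together. Trim25, the ubiquitin ligase that acts on RIG-I, had -0.33, and Ddx60, a helicase that is thought to aid the sensors, had -0.43 at 2.37 ± 1.17 CPM in SNI and 3.18 ± 0.424 CPM in Sham (SD, n = 4 libraries each). Their edgeR adjusted p values were 0.338 and 0.445.

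Of 10 effectors that act on RNA, DNA or translation, Ifit2 and Ifit3 fell. The IFIT proteins bind viral RNA or translation factors, and the 3 genes lie near each other on chromosome 19. Their positions (GRCm38) are 34550694 to 34576419 for Ifit2, 34583531 to 34588731 for Ifit3 and 34640871 to 34650009 for Ifit1. Ifit2 had 13.4, 13.9, 12.6 and 12.5 CPM in SNI replicates 1 to 4, against 16.5, 16.3, 20.9 and 18.2 CPM in Sham replicates 1 to 4, and the groups did not overlap. Ifit3 had 17.3, 14.4, 19.0 and 13.9 CPM in SNI replicates 1 to 4, against 23.3, 18.5, 31.1 and 25.3 CPM in Sham replicates 1 to 4. Here SNI replicate 3 lay above Sham replicate 2, and Sham replicate 3 was highest. Ifit1 had 6.38, 6.49, 7.65 and 5.12 CPM in SNI replicates 1 to 4, against 9.77, 6.64, 10.8 and 11.1 CPM in Sham replicates 1 to 4, with the same overlap of 1 library from each group. The log2 fold changes were -0.46 ± 0.114 (SE) for Ifit2 and -0.61 ± 0.149 (SE) for Ifit3 with edgeR adjusted p values of 0.0314 and 0.0311, and -0.58 ± 0.180 (SE) for Ifit1, which did not pass (0.0754). The call of Ifit2 ended without Sham replicate 3, Sham replicate 4, SNI replicate 3 or SNI replicate 4 (edgeR adjusted p = 0.137, 0.0636, 0.0883 and 0.0654). It also ended with library-total scaling (edgeR adjusted p = 0.0506). The call of Ifit3 ended without Sham replicates 1, 3 or 4 or SNI replicates 2 or 4 (edgeR adjusted p = 0.0578, 0.110, 0.0611, 0.0886 and 0.0670). Without SNI replicates 2 and 4 together neither Ifit2 nor Ifit3 passed (edgeR adjusted p = 0.102 and 0.214). The same held without SNI replicates 2 and 3 together (edgeR adjusted p = 0.116 and 0.132). Ifit1 passed with DESeq2 (adjusted p = 0.0364) and without Sham replicate 2 (0.0259). The IFIT genes have close relatives, so how shared reads were divided is uncertain.

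The other effectors did not pass. Oasl2, a relative of the 2′-5′ oligoadenylate synthetases, had 9.98, 6.24, 11.8 and 4.16 CPM in SNI replicates 1 to 4, against 12.1, 13.5, 16.2 and 14.0 CPM in Sham replicates 1 to 4. Its groups did not overlap, SNI replicate 4 was lowest, and the log2 fold change was -0.80 ± 0.260 (SE) with an edgeR adjusted p of 0.105. It passed with DESeq2 and limma voom (adjusted p = 0.0183 and 0.0175) and without SNI replicate 3 (edgeR adjusted p = 0.0405). Adar, which edits adenosine to inosine in double-stranded RNA, averaged 101 ± 20.4 CPM in SNI and 127 ± 11.8 CPM in Sham (SD, n = 4 libraries each), and its exons overlap those of Chrnb2 on the opposite strand by 1365 bases. Without SNI replicate 1 it passed, at a log2 fold change of -0.44 against -0.33 with all libraries (edgeR adjusted p = 0.0481). Eif2ak2, which encodes the RNA-activated kinase PKR, had a log2 fold change of -0.46, Rsad2, which encodes viperin, -0.47, Oas1c -0.40 and Isg20, an exonuclease, -0.37. All 4 overlapped between groups, as did Samhd1, a nucleotide hydrolase, which averaged 18.3 ± 0.621 CPM in SNI and 17.7 ± 0.918 CPM in Sham (SD, n = 4 libraries each) and had 0.05.

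Among the membrane proteins Rtp4 fell. Rtp4, a chaperone of cell surface receptors that is also induced by interferon (GRCm38 chromosome 16 from 23520291 to 23614222), had 7.68, 6.54, 7.92 and 3.92 CPM in SNI replicates 1 to 4, against 11.5, 12.2, 10.8 and 11.99 CPM in Sham replicates 1 to 4. Every SNI library lay below every Sham library, and SNI replicate 4 was lowest. Its exons share 296 bases on the same strand with the annotated transcript Gm45338, so which of the pair the reads belong to is uncertain there. On the log2 scale Rtp4 changed by -0.84 ± 0.182 (SE), or 1.79-fold lower, with an edgeR adjusted p of 0.0164, and the call held whichever single library was left out. It ended without SNI replicates 2 and 4 together or 2 and 3 together (edgeR adjusted p = 0.0604 and 0.0524). Bst2, which encodes tetherin, a protein that holds budding virus at the cell surface, had 9.23, 10.5, 13.3 and 5.30 CPM in SNI replicates 1 to 4, against 15.5, 17.3, 15.7 and 13.2 CPM in Sham replicates 1 to 4. SNI replicate 3 lay just above Sham replicate 4, and the log2 fold change of -0.69 ± 0.210 (SE) did not pass (edgeR adjusted p = 0.0804). Bst2 passed with DESeq2 and limma voom (adjusted p = 0.0192 and 0.0131), and without SNI replicates 2 and 3 together (edgeR adjusted p = 0.0212). Ifitm3, which blocks entry of virus through endosomes, had 19.5, 25.1, 34.9 and 13.9 CPM in SNI replicates 1 to 4, against 29.4, 29.7, 31.8 and 34.6 CPM in Sham replicates 1 to 4, so SNI replicate 3 was highest of all 8. Without that library Bst2 and Ifitm3 both passed, at log2 fold changes of -0.88 and -0.68 (edgeR adjusted p = 0.0392 and 0.0483), while Ifitm3 had -0.43 with all libraries. Ifitm3 also passed with limma voom (adjusted p = 0.0282) and without SNI replicates 2 and 3 together (edgeR adjusted p = 0.00626). Its close relative Ifitm2 averaged 4.87 ± 1.73 CPM in SNI and 4.05 ± 1.20 CPM in Sham (SD, n = 4 libraries each), and its log2 fold change of 0.26 did not pass (0.620). SNI replicate 3 was highest and SNI replicate 4 lowest among the SNI libraries for both Ifitm genes.

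Isg15 fell and its protease Usp18 did not pass. ISG15 is a ubiquitin-like protein that is joined to other proteins during the interferon response, and USP18 removes it and also dampens receptor signalling. Isg15 (GRCm38 chromosome 4 from 156199424 to 156200818) had 4.52, 5.05, 5.26 and 3.01 CPM in SNI replicates 1 to 4, against 8.75, 8.23, 12.3 and 8.77 CPM in Sham replicates 1 to 4, from 50 to 102 reads per SNI library and 124 to 195 per Sham library. The groups were far apart, with SNI replicate 4 lowest and Sham replicate 3 highest. For Isg15 the log2 fold change was -1.09 ± 0.194 (SE), or 2.13-fold lower, with an edgeR adjusted p of 0.00571. Usp18 had 3.10, 2.18, 2.46 and 1.21 CPM in SNI replicates 1 to 4, against 4.34, 3.19, 4.61 and 5.10 CPM in Sham replicates 1 to 4. The highest SNI value, in replicate 1, was close to the lowest Sham value, in replicate 2, without overlap. The log2 fold change of Usp18 was -0.95 ± 0.268 (SE) with an edgeR adjusted p of 0.0525, and it passed with DESeq2 and limma voom. It also passed with RLE scaling in place of TMM, and without Sham replicate 2 or SNI replicate 1 (edgeR adjusted p = 0.0491, 0.0451 and 0.0286).

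The ADP-ribosyltransferases and ubiquitin ligases of this group overlapped between SNI and Sham. Parp14, Parp9 and Parp12 had log2 fold changes of -0.41, -0.29 and -0.17, and Dtx3l, the ubiquitin ligase that pairs with PARP9, had -0.18. Parp9 and Dtx3l lie on opposite strands and share 458 exonic bases, so their reads may be mixed. Trim30a, a regulator of inflammatory signalling, had -0.10, and its sign turned without Sham replicate 3, without SNI replicate 4 or without SNI replicates 2 and 4 together. The edgeR adjusted p values for these 5 genes ran from 0.377 to 0.860.

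The remaining interferon-induced genes held the largest falls. Ifi27l2a (GRCm38 chromosome 12 from 103442167 to 103443680) had 1.36, 2.28, 2.40 and 0.964 CPM in SNI replicates 1 to 4, against 4.14, 7.30, 5.18 and 5.10 CPM in Sham replicates 1 to 4. It was scarce, with 16 to 46 reads per SNI library and 61 to 110 per Sham library, yet every SNI library lay below every Sham library. Its log2 fold change was -1.63 ± 0.282 (SE), or 3.08-fold lower, with an edgeR adjusted p of 0.00522. Ifi27 (GRCm38 chromosome 12 from 103434211 to 103440239), a related gene of the same family next to it on the chromosome, had 44.9, 49.6, 53.0 and 44.1 CPM in SNI replicates 1 to 4, against 81.2, 77.0, 72.5 and 66.5 CPM in Sham replicates 1 to 4. Its groups were far apart and its libraries within each group close together. The log2 fold change was -0.63 ± 0.0876 (SE), or 1.55-fold lower, with an edgeR adjusted p of 0.00130, the smallest among the members. Reads shared between these relatives are uncertain.

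Lgals3bp, a secreted glycoprotein that binds galectin-3 (GRCm38 chromosome 11 from 118392751 to 118402092), had 21.5, 15.0, 29.8 and 16.1 CPM in SNI replicates 1 to 4, against 48.6, 51.8, 50.3 and 48.2 CPM in Sham replicates 1 to 4. The Sham libraries lay within a few CPM of each other and the SNI libraries spread more widely, with replicate 3 highest. The log2 fold change was -1.28 ± 0.179 (SE), or 2.43-fold lower, with an edgeR adjusted p of 0.00392. Ifi44, a cytosolic protein of the interferon response, had 2.85, 1.83, 2.60 and 0.783 CPM in SNI replicates 1 to 4, against 3.19, 3.72, 5.94 and 4.19 CPM in Sham replicates 1 to 4. Its groups did not overlap, and SNI replicate 4 held 13 reads. The log2 fold change of -1.09 ± 0.323 (SE) did not pass in edgeR (adjusted p = 0.0656), and passed with DESeq2, limma voom and without SNI replicate 1 (edgeR adjusted p = 0.0415). Sp100, a nuclear body protein, had -0.46, Xaf1, a protein that promotes cell death, -0.39, and Ifi35 -0.13. Those 3 overlapped between groups and did not pass, with edgeR adjusted p values of 0.172, 0.142 and 0.779.

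**Figure D3:**
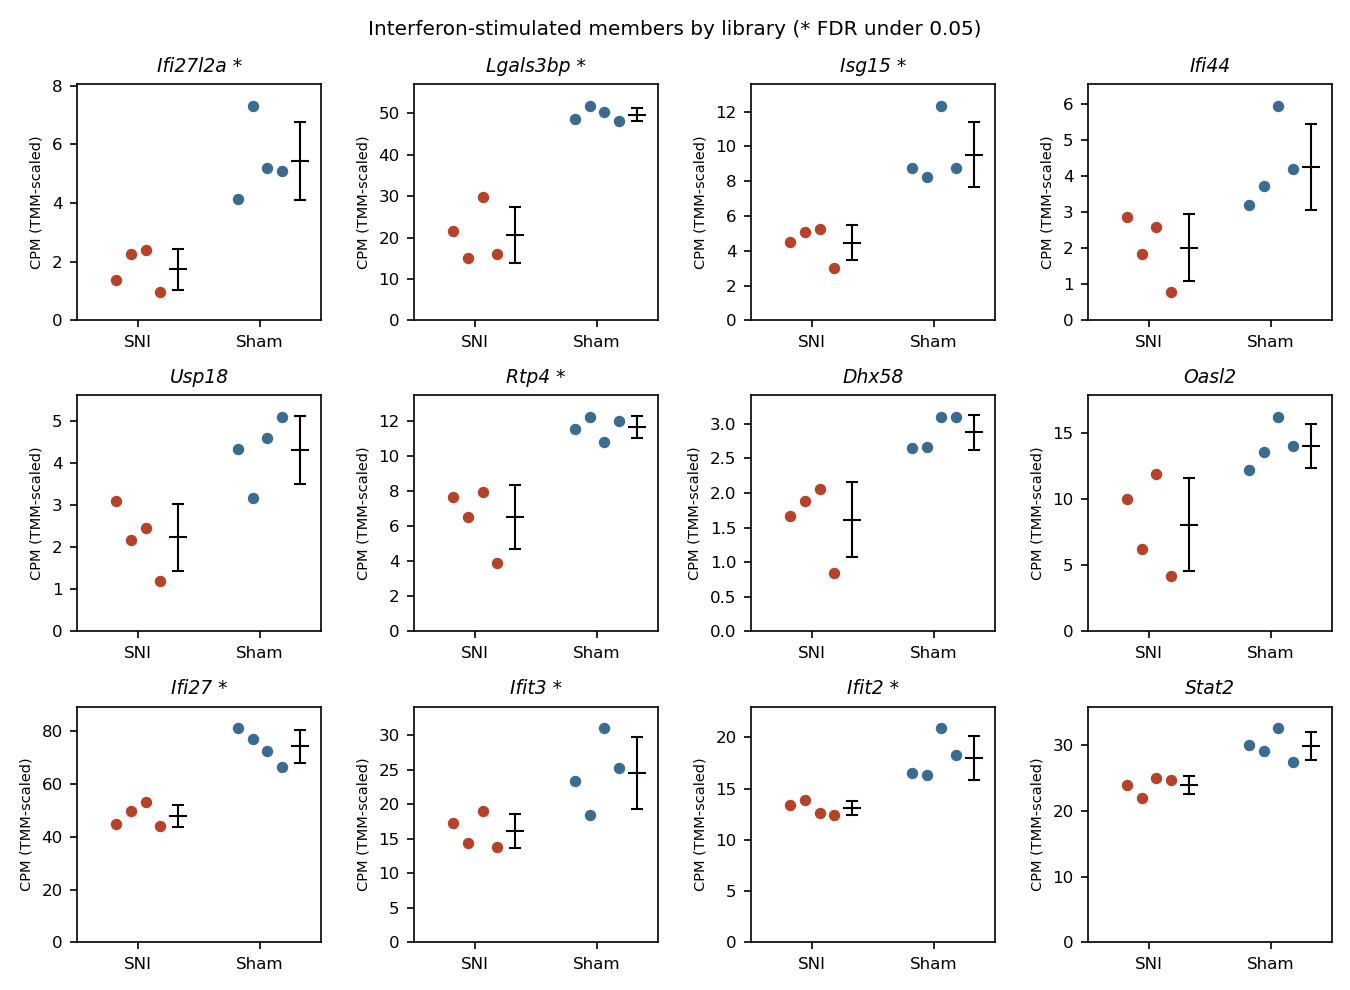
TMM-scaled CPM in each library (points, SNI left and Sham right, replicates 1 to 4 from left to right within a group) for the 7 members that fell (asterisk) and the 5 others whose SNI values all lay below the Sham values. Black marks are the mean and 1 SD of 4 libraries, and each axis starts at 0. In Lgals3bp the highest SNI value, 29.8 CPM, lies far below the lowest Sham value, 48.2 CPM, and Ifit3 overlaps in 1 library of each group.

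Isg15, Ifi27, Ifi27l2a and Lgals3bp passed in each of the 18 alternatives run, which include every library left out in turn. Rtp4 passed in 16, Ifit3 in 11 and Ifit2 in 10. Of the 32 members that did not pass, 23 passed in 0 of the alternatives and 9 in at least 1, all of the 9 lower in SNI. The matching share over all genes was not counted, so these 9 have no background beside them.

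Exons of Ifnar2, Ifitm2, Parp14 and Sp100 also overlap those of another annotated gene on the same strand, and exons of Dhx58, Usp18, Eif2ak2, Oas1c and Ifi35 those of one on the opposite strand, so their counts are uncertain in that part.

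Levels were compared between members per kilobase of annotated exon (union of GENCODE M21 exons). On that scale Ifi27 had the highest Sham level of the members, at 32.7 CPM per kilobase in SNI and 50.6 in Sham, followed by Ifitm3 at 34.5 and 46.3 and Jak1 at 22.2 and 24.2. Lgals3bp came next at 7.23 in SNI and 17.5 in Sham. Ddx60 was the lowest, at 0.273 in SNI and 0.366 in Sham. Ordered by that Sham level, the 7 members that fell lay between rank 1 (Ifi27) and rank 15 (Ifit2) of 39. Their selection as lower in SNI favours a high Sham level, and scarce genes pass the test less easily.

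Many members had their lowest or highest value in the same library. SNI replicate 4 was the lowest of the 8 libraries for 26 of the 39 members, and Sham replicate 3 was the highest for 18. The same counts were not made over all genes, so whether this is particular to the members was not tested. Averaged over the members, the deviation of log2 CPM from each gene's mean over all libraries was -0.19, -0.19, 0.12 and -0.64 in SNI replicates 1 to 4, against 0.12, 0.10, 0.38 and 0.30 in Sham replicates 1 to 4. SNI replicate 3 thus lay level with Sham replicates 1 and 2, and the groups overlapped on this mean. The 7 members that fell did not share that overlap: their mean deviation was -0.43, -0.43, -0.18 and -0.84 in SNI and 0.39, 0.46, 0.59 and 0.44 in Sham, a separation that their selection favours. Without SNI replicate 4 the median log2 fold change of the members was -0.28, and without SNI replicate 3 it was -0.52.

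**Figure D4:**
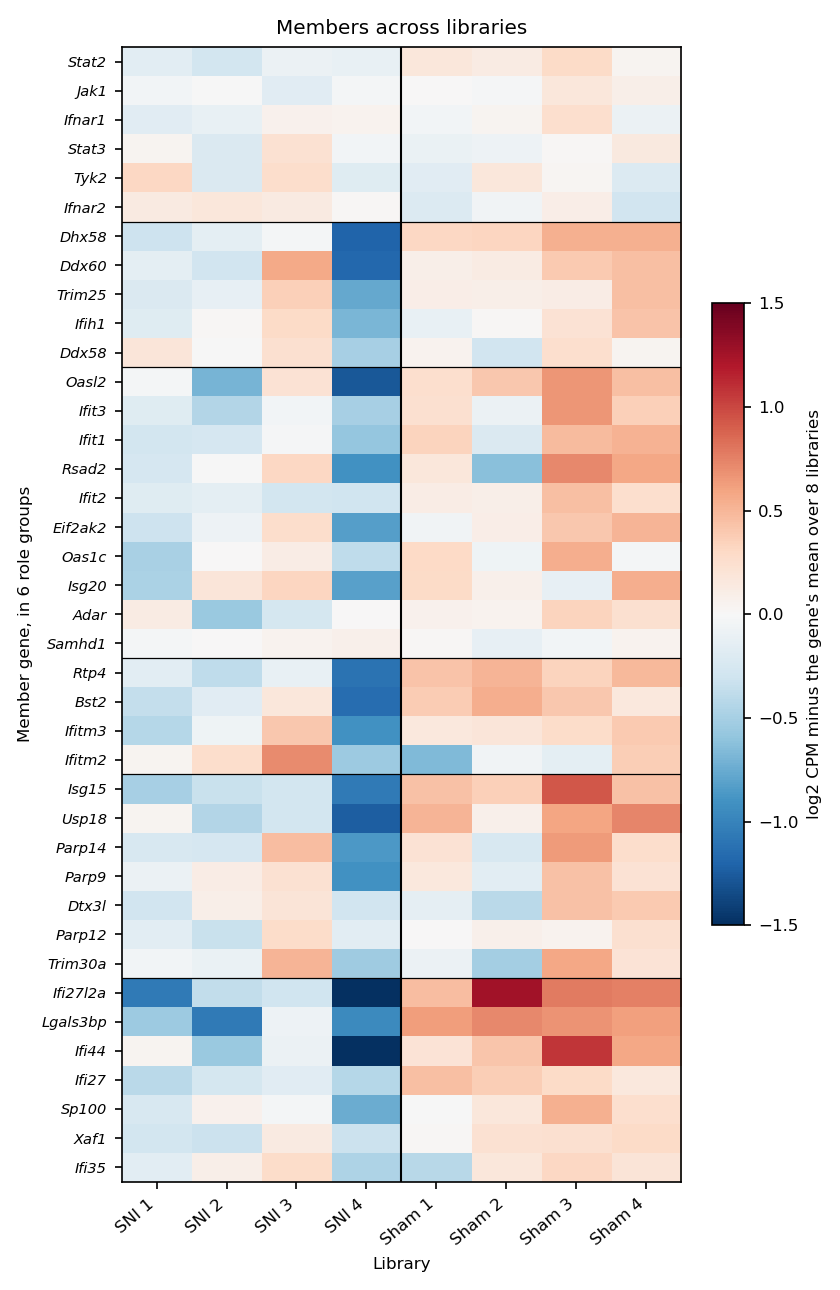
Log2 CPM of each member minus its mean over the 8 libraries (colour, red above and blue below the mean), with SNI libraries left of the line and Sham libraries right of it and genes in 6 role groups from top to bottom. SNI replicate 4 is the bluest column, being lowest for 26 of 39 members, and SNI replicate 3 is mixed, above the gene mean for 24.

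Some cell type marker lists followed the order of these SNI libraries and others did not. Microglia markers, all 15 with a row, summed to 558 to 847 CPM in SNI and 503 to 613 CPM in Sham, and of these P2ry12 and Tmem119 rose. Their sum was highest in SNI replicate 3 and, among SNI libraries, lowest in replicate 4, which is the order of the members' highest and lowest SNI values. Blood leukocyte markers, 5 of 13 with a row, summed to 10.2 to 31.3 CPM in SNI and 4.71 to 8.28 CPM in Sham. Every SNI sum thus lay above every Sham sum, with replicate 3 highest and replicate 4 lowest in SNI. The median log2 fold change of these markers was 1.13, and 0 of them passed. The 8 without a row include the T and B cell markers Cd3e, Cd3d, Cd79a and Ms4a1, in a table whose smallest count is 1. Choroid plexus and meninges markers, 6 of 8 with a row, summed to 19.5 to 49.5 CPM in SNI and 13.9 to 39.3 CPM in Sham, with replicate 3 highest and replicate 4 lowest in SNI, and of these Ttr and Clic6 rose. Endothelial markers, all 10 with a row, summed to 339.9 to 487 CPM in SNI and 347 to 413 CPM in Sham, again with replicate 3 highest and replicate 4 lowest in SNI. Astrocyte markers, all 10 with a row, overlapped between groups at 3175 to 4150 CPM in SNI and 3272 to 3933 CPM in Sham. Oligodendrocyte markers summed to 4368 to 7749 CPM in SNI and 3136 to 6951 CPM in Sham, with SNI replicate 4 highest of all libraries. Excitatory neuron markers summed to 3560 to 5023 CPM in SNI and 4764 to 5469 CPM in Sham, lowest in SNI replicate 2. Inhibitory neuron markers summed to 874 to 1108 CPM in SNI and 954 to 1248 CPM in Sham. The part of these markers in the members' values was not tested.

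**Figure D5:**
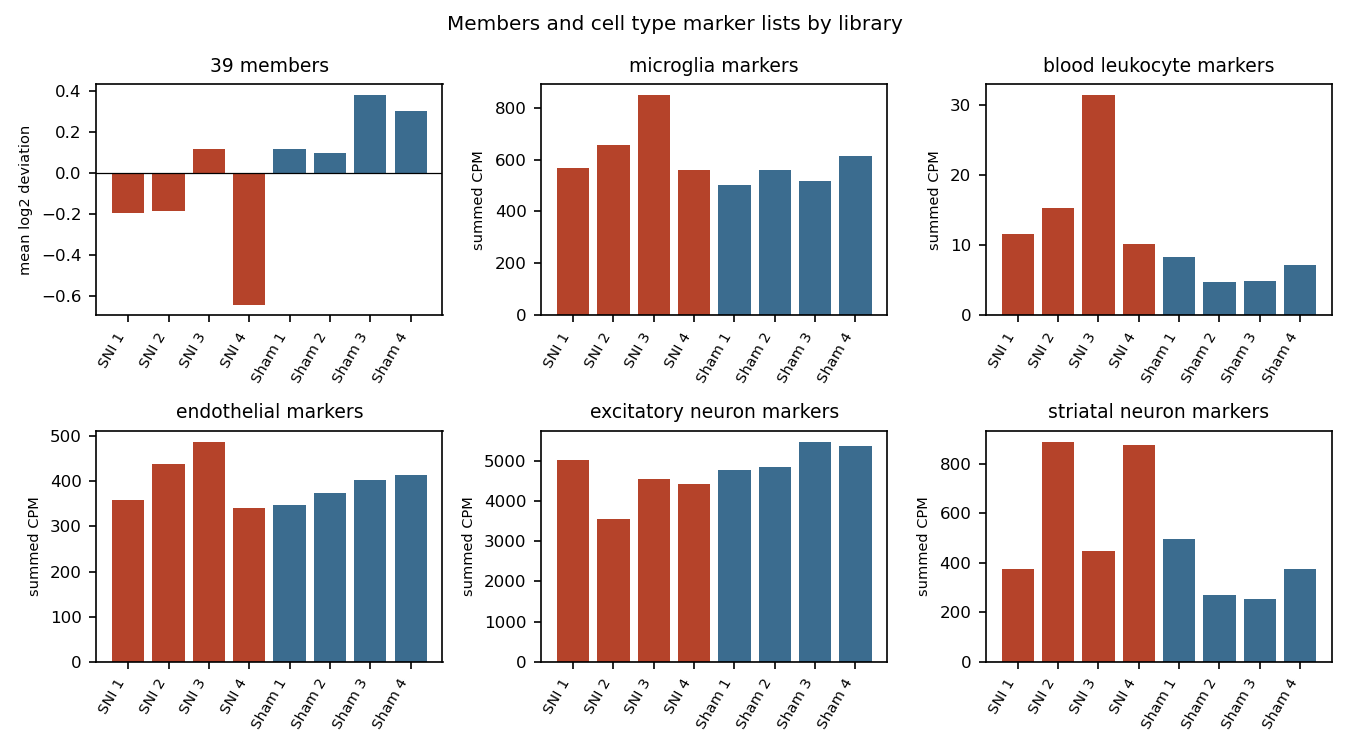
Mean log2 deviation of the 39 members (first panel) and summed TMM-scaled CPM of 5 marker lists (other panels) in each library, with SNI bars in red left of Sham bars in blue. SNI replicate 3 is highest for microglia, blood leukocyte and endothelial markers, and SNI replicates 2 and 4 are highest for striatal neuron markers.

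Among other genes of the interferon pathway, Irf9 of the transcription complex, Irf7 and several GTPases fell, and Ifngr1 rose. From a list of 77 further genes, 74 had a row and 69 were tested. By the same edgeR test 8 of the 69 (11.6%) fell, beside 2.87% of all genes, and 1 rose, beside 2.15%, with a median log2 fold change of -0.06. Irf9, the DNA-binding part of the complex, had 14.8, 13.9, 18.8 and 13.1 CPM in SNI replicates 1 to 4, against 26.3, 24.0, 26.3 and 23.6 CPM in Sham replicates 1 to 4. All its SNI values lay below all its Sham values, with a log2 fold change of -0.73 ± 0.118 (SE) and an edgeR adjusted p of 0.00385. It passed in each of the 18 alternatives, as did Gbp3, an interferon-induced GTPase, at -1.04 ± 0.178 (SE) (edgeR adjusted p = 0.00522).

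Irf7, the factor that amplifies type I interferon production, had 8.12, 4.95, 9.25 and 2.53 CPM in SNI replicates 1 to 4, against 19.4, 16.9, 24.3 and 19.2 CPM in Sham replicates 1 to 4. The groups were far apart and SNI replicate 4 was lowest, and its log2 fold change was -1.69 ± 0.328 (SE) (edgeR adjusted p = 0.0255). The call of Irf7 ended without any 1 of the 4 Sham libraries or SNI replicate 2, with edgeR adjusted p values of 0.0624, 0.0559, 0.0802, 0.0703 and 0.0806. Irgm2 and Igtp, GTPases that overlap on 1 strand so that their reads are uncertain, had -1.77 and -1.20. Zbp1, a sensor of left-handed nucleic acid, had -1.76 at 0.829 ± 0.460 CPM in SNI and 2.79 ± 1.29 CPM in Sham (SD, n = 4 libraries each), and Shisa5, a membrane protein of the endoplasmic reticulum, had -0.41. Of these, the call of Igtp ended without Sham replicates 3 or 4 or SNI replicate 4 (edgeR adjusted p = 0.0733, 0.0562 and 0.0587), and that of Shisa5 without Sham replicate 3 (0.0698). Zbp1 kept its call in 2 of the 8 leave-outs, and its highest edgeR adjusted p among them was 0.110, without Sham replicate 3.

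The gene that rose was Ifngr1, the ligand-binding chain of the interferon gamma receptor. It had 15.5, 20.5, 21.8 and 18.3 CPM in SNI replicates 1 to 4, against 13.6, 12.7, 14.2 and 15.3 CPM in Sham replicates 1 to 4, with every SNI value above every Sham value. Its log2 fold change was 0.45 ± 0.122 (SE) with an edgeR adjusted p of 0.0462, and the call held in 1 of the 8 leave-outs, with the highest edgeR adjusted p, 0.142, without SNI replicate 3. The second chain, Ifngr2, had -0.01 and did not pass. Among genes that other interferon lists often hold, B2m, the light chain of MHC class I, had 0.08, Psmb8, an immunoproteasome subunit, 0.46, and Irf1 -0.11, and these 3 did not pass (edgeR adjusted p = 0.916, 0.371 and 0.732). Gbp4 had -1.43, Ifi47 -1.16, Oas2 -1.03, Oas1a -0.68 and Mx1 -0.51, and these did not pass either (edgeR adjusted p = 0.0856, 0.0603, 0.0888, 0.173 and 0.381). In the whole further list, 41 estimates were negative and 28 positive.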

How the data were processed

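Bulk poly(A) RNA of PrL tissue was measured in 4 SNI and 4 Sham libraries. The authors deposited 1 table of raw read counts, with a gene symbol for each row. Per the submitters' processing notes, fastp, HISAT2 and StringTie were used on GRCm38; no source used here gives versions, annotation or the step to counts. The library chemistry keeps strand, per the labels' protocols, but its use in counting is not stated. The smallest count is 1, so genes without a read in some library have no row.

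Counts were tested with edgeR 4.0.16 (R 4.3.3): filterByExpr (13911 of 14765 genes), TMM scaling, robust quasi-likelihood F-test, group as the only term, two-sided, Benjamini-Hochberg adjustment over all genes, threshold 0.05. The standard error is the log2 fold change divided by the square root of F. The code was tested on simulated data. No library was a copy of another (chi-square per degree of freedom of same-group pairs 7.39 or more). The values reached higher in SNI, at 9.81 to 28.4, than in Sham, at 7.39 to 12.4. Deviations per library use log2 CPM with a prior count of 2.

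Values in every library are given for members that passed or whose groups did not overlap; others named at the library level (Ifit1, Bst2 and Ifitm3) were added after their values were seen. The members, lists, roles and alternatives were chosen with earlier results of these data known. Some genes of the marker and pathway lists enter the counts and sums but are not reported here by name. Alternatives were RLE, upper quartile and library-total scaling, other filters, DESeq2 1.42.0, limma 3.58.1 voom with quality weights, a replicate block, and libraries left out singly or as SNI replicates 2 and 4 or 2 and 3. Gene positions and exon lengths come from GENCODE M21 (GRCm38; 39 of 39 members matched), promoters from RefSeq GRCm38.p6.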

Additional observations from a re-analysis of the deposited data

Results flagged for a closer look

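Single libraries stood far from the rest of their group in 3 of the 116 groups of 4 values checked, by Dixon's test, which chance meets in about 1 of 20 groups. Xaf1 in SNI replicate 3 had 9.58 CPM, against 6.93 to 7.19 CPM in the other 3 libraries of its group. Isg15 in Sham replicate 3 had 12.3 CPM, against 8.23 to 8.77 CPM in the other 3 libraries of its group; without that library its log2 fold change was -0.94 (edgeR adjusted p = 0.0297). Trim25 in Sham replicate 4 had 14.2 CPM, against 11.0 to 11.2 CPM in the other 3 libraries of its group.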

How the results depend on the processing

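The count of 7 lower members stayed within 1.5 times under other scalings and filters (6 to 8). It became 13 with DESeq2 and 13 with limma voom, 5 to 10 when 1 library was left out, 4 without SNI replicates 2 and 4, and 6 without SNI replicates 2 and 3. The count of higher members was 0 throughout. Over all genes, the 399 lower and 299 higher calls became 654 and 511 with DESeq2 and 439 and 342 with limma voom. They became 265 and 173 without SNI replicates 2 and 4, and 128 and 50 without SNI replicates 2 and 3. With 1 library left out they ran over 168 to 453 lower and 90 to 405 higher. Scaling by library totals gave 276 lower and 446 higher, so higher genes were 61.8% of calls against 42.8%. In the further pathway list, the 8 lower and 1 higher calls became 4 and 0 without SNI replicates 2 and 4, 4 and 0 without SNI replicates 2 and 3, and 4 to 10 lower and 0 to 1 higher with 1 library left out. Its higher count was 0 with limma voom. The cause of these changes was not tested.

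Same-numbered libraries did not deviate together over the genes as a whole (correlations of deviations -0.03, -0.01, -0.08 and -0.15 over 13911 genes). A factor that touches only some genes might not show in these values, and the labels do not say what the number stands for. The replicate block gave 7 lower members, 0 higher pathway genes, and 306 lower and 212 higher genes in all. With it Bst2 passed (edgeR adjusted p = 0.0236) and Ifit2 did not (0.0623).

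The sign held in every alternative for 34 members. The log2 fold change turned in 5 members that passed in none. For Ddx58 it was 0.027 with library totals, 0.0029 with upper quartile scaling and 0.19 without SNI replicates 2 and 4, for Trim30a 0.16 in that last setting, and for Ifitm2 -0.16 without SNI replicates 2 and 3. With 1 library left out it ran over -0.12 to 0.11 for Ddx58, -0.32 to 0.11 for Trim30a, -0.067 to 0.082 for Stat3 and -0.0024 to 0.18 for Tyk2. Depth limits the scarce members most: Dhx58, Ifi44 and Isg20 had SNI libraries of 11 to 14 reads.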

Other observations

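Genes that lead from nucleic acid sensing to interferon production had estimates above as well as below 0. Tmem173, which encodes the adaptor STING, averaged 5.99 ± 1.86 CPM in SNI and 4.09 ± 0.349 CPM in Sham (SD, n = 4 libraries each), with every SNI value above every Sham value and a log2 fold change of 0.54 (edgeR adjusted p = 0.156). Mavs, the adaptor of the RNA sensors, had 0.30 (edgeR adjusted p = 0.295), and Tbk1, the kinase downstream of both adaptors, had 0.02 (edgeR adjusted p = 0.914). Traf3, which links adaptors to that kinase, had -0.29 (edgeR adjusted p = 0.0653), with every SNI value below every Sham value. None of these 4 passed the threshold.

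The DNA-binding genes Ifi204 and Mndal, from an interferon-induced family, had log2 fold changes of 0.89 and 0.82 and did not pass (edgeR adjusted p = 0.271 and 0.229). These were opposite in sign to those of Isg15 (-1.09) and Ifi44 (-1.09). Ifi204 had 1.24, 1.34, 3.39 and 0.603 CPM in SNI replicates 1 to 4, against 0.695 to 1.15 CPM in Sham, so replicate 3 stood apart. For Mndal, SNI replicate 4, at 0.663 CPM, lay below every Sham value (1.02 to 1.52 CPM). Ifi203 of the same family had 0.21 (edgeR adjusted p = 0.776). Whether the genes of that family differ from the members in response was not tested. The interferon-induced chemokine genes Cxcl10 and Ccl5 were below the count filter, at 0.647 ± 0.455 CPM in SNI and 0.300 ± 0.164 CPM in Sham (SD, n = 4 libraries each) for Cxcl10 and 0.797 ± 0.497 CPM in SNI and 0.398 ± 0.297 CPM in Sham (SD, n = 4 libraries each) for Ccl5.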
